A study of Homo sapiens with 30 samples.

Results

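In MR49F prostate cancer cells kept in charcoal-stripped serum, 3 samples treated with enzalutamide were compared with 3 samples treated with vehicle, chosen by their treatment labels from 30 samples in all. MR49F is a subline of the LNCaP prostate cancer line, resistant to enzalutamide after selection with the drug in a mouse host. According to the study's methods, this line was routinely grown with enzalutamide in its medium. When the drug was removed before these experiments is not stated. The cells were therefore not new to the drug, and vehicle samples in either serum may reflect its withdrawal. The cells were held for 72 h in medium with charcoal-stripped serum, which is depleted of steroids, and were then given 10 μM enzalutamide (MDV3100) or vehicle (DMSO and ethanol, each at 0.1%) for 24 h. All 6 samples share the line, the stripped serum and the vehicle, and the line is a single resistant derivative. Samples of other conditions serve as references: 3 samples of the same experiment given 1 nM dihydrotestosterone (DHT), and 6 samples of MR49F cells in full serum given vehicle or 10 μM enzalutamide for 24 h. The labels describe triplicate wells, and the study calls its replicates biological, with wells combined for each. Separate cultures are not stated, so the p-values measure the spread between these samples, which may be technical.

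Androgens raise secretory and metabolic genes of the luminal prostate cell, such as the kallikreins, and lower a smaller group of genes. Enzalutamide is an antiandrogen, used because it blocks this hormone response, and resistant cells are known in which it acts as an agonist instead. The question of this comparison was which genes enzalutamide raised or lowered when little androgen was present.

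Each of the 6 libraries held 20652437 to 25119367 reads assigned to a gene, to several or to none, but the deposited gene counts took up only 5.13% to 7.43% of them (1059382 to 1702742 reads), against 76.1% to 77.8% in the full-serum libraries. Some genes that share exons with a gene on the other strand differed strongly between the counts and the second deposited measure, FPKM (fragments scaled to transcript length and mapped fragments). SNX22, which overlaps PPIB, had 4974 CPM (counts scaled to the library total) in stripped vehicle and 12.3 CPM in full vehicle, while its FPKM was 2.45 and 2.98. The log2 ratio of stripped to full vehicle was over 3 higher in CPM than in FPKM for 7.97% of 2447 genes with such an overlap and for 1.72% of 8070 genes without one. Levels below are therefore in FPKM, and a gene is called higher or lower only where edgeR on the counts and limma on log2(FPKM + 1) both gave a Benjamini-Hochberg adjusted p of at most 0.05 in the same direction. Both measures come from the same libraries and do not replicate each other. For enzalutamide against vehicle, the log2 changes in the 2 measures had a median absolute gap of 0.111 over 2456 genes with an exon overlap. The gap was 0.106 over 8075 genes without one.

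Enzalutamide raised 455 genes in both measures, 4.32% of the 10531 genes tested in both, and lowered 285 genes, or 2.71%. Counts alone called 488 genes higher (4.38% of 11131) and 320 lower (2.87%), and FPKM alone called 2356 higher (19.3% of 12178) and 2353 lower (19.3%). Most FPKM calls were small, with a median absolute log2 change of 0.272, against 0.654 for the count calls. At a change of at least 2-fold, counts called 120 genes higher and 41 lower. Of 772 count calls tested in both, 740 had the same call in FPKM and 1, CISD3, had the opposite one. CISD3 was singled out after its values were seen, and it shares exons with an opposite-strand gene. The 2 treatments separated on the first principal component, which held 40.8% of the variance of log CPM and 58.7% of that of log FPKM. The number of calls changed with the sample left out, where each fit also held 1 sample fewer. In both measures 375 genes were called without vehicle replicate 1, 447 without vehicle replicate 2 and 410 without enzalutamide replicate 2. Without enzalutamide replicate 3 the number was 751. An equal-variance test on variance-stabilized counts called 134 of 17274 genes tested. The study's methods name a test of this kind, but after removal of genes with low variation. That filter was not applied here, so the number does not show what the study's own procedure would call.

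**Figure D1:**
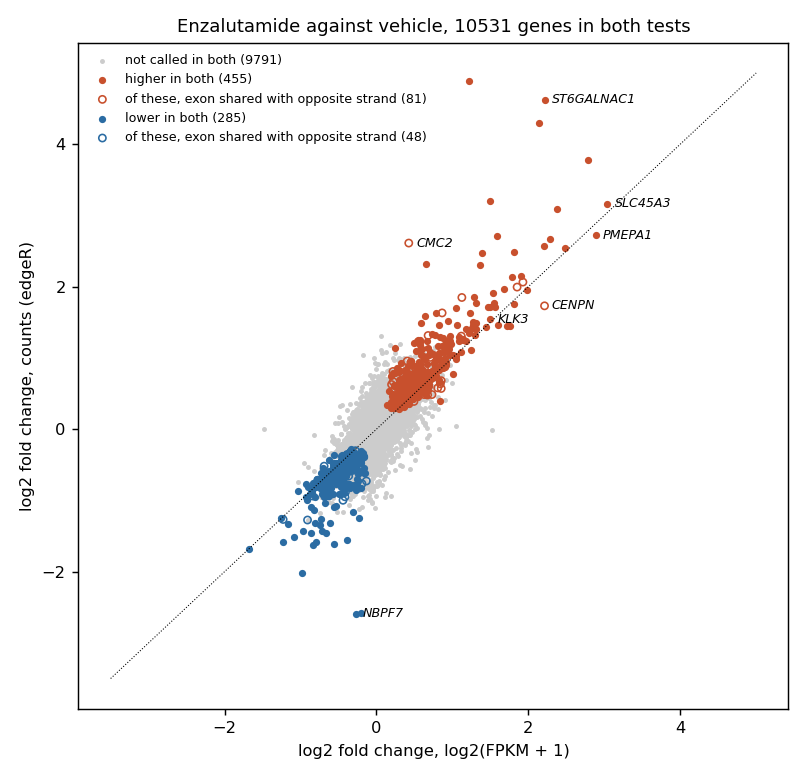
Log2 fold change of each gene with enzalutamide in counts (vertical axis, edgeR) against that in log2(FPKM + 1) (horizontal axis), for 10531 genes; the dotted line marks equal change. The 455 higher and 285 lower genes lie in opposite corners, open circles share exons with an opposite-strand gene, and CMC2 and NBPF7 lie far from the line.

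The kallikrein genes are classical androgen targets. KLK3, which encodes prostate-specific antigen (chromosome 19, 51358171 to 51364020, GRCh37), was at 277, 282 and 289 FPKM in the vehicle samples and at 794, 810 and 796 FPKM in the enzalutamide samples. The groups did not overlap, and the mean rose from 283 ± 6.14 to 800 ± 8.90 FPKM (SD, n = 3), or 2.83-fold (log2 change in counts 1.54, standard error 0.0815, adjusted p = 2.04e-10, edgeR). KLK2, its neighbour on chromosome 19 (51364824 to 51383823), rose from 28.9, 29.6 and 30.1 FPKM to 106, 108 and 105 FPKM, a 3.60-fold change. The promoters of this pair are shown because an androgen response element is known near the KLK3 start; the sequences are from RefSeq (GRCh38.p14, plus strand), 250 bases before to 50 after the start, at chr19:50854665-50854964 for KLK3 and chr19:50873189-50873488 for KLK2, with the androgen response half-sites AGAACA or TGTTCT in capitals.
KLK3: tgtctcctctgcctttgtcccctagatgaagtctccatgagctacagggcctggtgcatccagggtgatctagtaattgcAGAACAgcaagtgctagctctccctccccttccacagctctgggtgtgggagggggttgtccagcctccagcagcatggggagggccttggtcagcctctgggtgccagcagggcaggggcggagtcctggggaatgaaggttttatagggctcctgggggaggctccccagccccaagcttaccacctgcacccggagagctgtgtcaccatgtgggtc
KLK2: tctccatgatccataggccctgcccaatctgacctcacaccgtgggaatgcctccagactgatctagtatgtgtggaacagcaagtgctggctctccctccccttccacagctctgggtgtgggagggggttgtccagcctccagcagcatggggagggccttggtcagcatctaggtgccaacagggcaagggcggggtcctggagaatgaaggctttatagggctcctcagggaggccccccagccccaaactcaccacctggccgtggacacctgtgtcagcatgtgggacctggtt
KLK3 holds 1 such half-site, whose first base lies 170 bases before the start, and the KLK2 window holds none in these exact letters. Such a half-site occurs in 8.28% of the 7854 promoters found by symbol among the genes tested in both measures. It occurs in 8.26% of those of the genes that rose and in 6.50% of those that fell. The androgen-induced targets listed below have it in 3 of 18 promoters found (16.7%). The genes named below by rank have it in 5 of 15 (33.3%), and both sets are small. AGAACA followed by TGTTCT after 3 bases occurs in none of these windows. These windows hold no distal enhancer.

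TMPRSS2, a serine protease of prostate epithelium, is a further luminal androgen target. It (chromosome 21, 42836227 to 42903043) rose from 22.4, 24.4 and 23.1 FPKM to 95.2, 88.2 and 91.1 FPKM. TMPRSS2 shares exon bases with MX1 on the other strand, so its counts are uncertain, but its log2 change was 2.06 in counts and 1.93 in log2(FPKM + 1). FKBP5, a co-chaperone of steroid receptors (chromosome 6, 35541362 to 35696360), rose from 9.21, 9.14 and 10.2 FPKM to 49.0, 45.5 and 48.2 FPKM. In each of these targets all 3 enzalutamide samples lay above all 3 vehicle samples by more than the spread within either group. A lack of overlap in FPKM is not by itself particular to them. NDRG1, STEAP2 and FOXA1, which were not called in both measures, did not overlap in FPKM either.

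**Figure D2:**
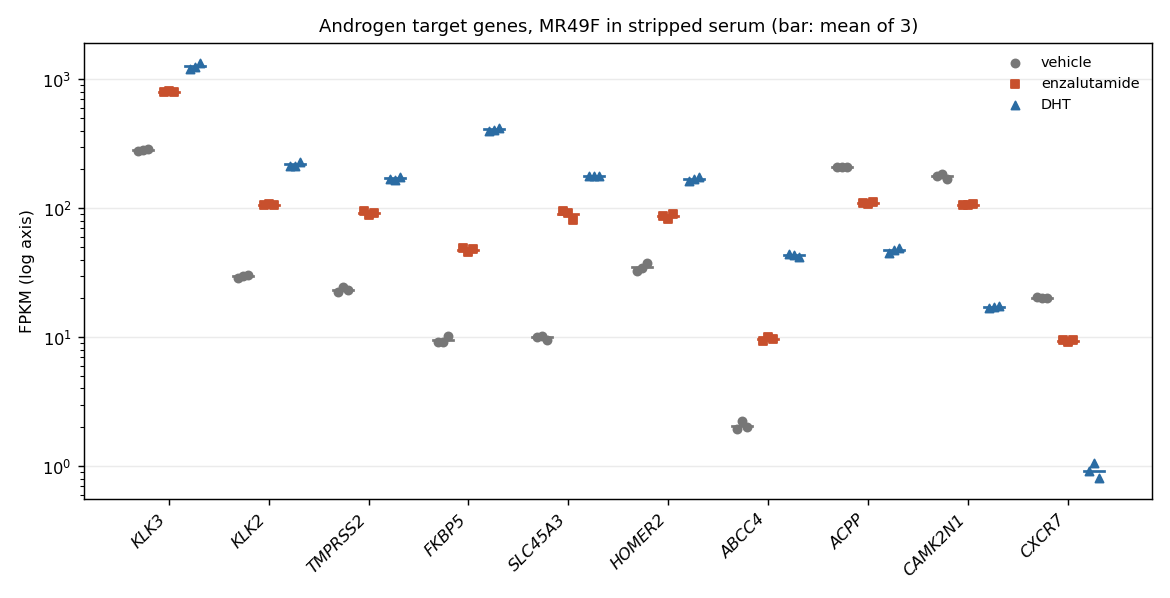
FPKM (log axis) of androgen target genes in each stripped-serum sample given vehicle, enzalutamide or DHT; points are samples and short bars are means of 3. KLK3 rises from 277 to 289 FPKM with vehicle to 794 to 810 with enzalutamide, and ACPP, CAMK2N1 and CXCR7 fall.

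Of 32 listed androgen-induced targets, 26 had enough reads for both tests; 22 of these rose and 1 fell. The median log2 change of the members tested was 1.38 in counts and 1.20 in log2(FPKM + 1), against -0.0011 and -0.013 over all genes tested, and their summed level went from 1148 to 1177 FPKM with vehicle to 2525 to 2559 FPKM with enzalutamide. HOMER2, a synaptic scaffold protein, rose 2.49-fold, SORD, which oxidises sorbitol to fructose, 2.02-fold, the elongation factor ELL2 2.58-fold and the efflux pump ABCC4 4.71-fold in mean FPKM. CENPN, a kinetochore protein, rose from 11.7 to 57.9 FPKM. It shares exon bases with CMC2. ACPP, prostatic acid phosphatase, fell from 209, 207 and 210 FPKM to 110, 107 and 112 FPKM, against the direction of its list. With DHT it was lower still, at 47.2 FPKM (log2 difference from enzalutamide in counts -1.20), so DHT did not raise it here either. NDRG1, a stress- and androgen-responsive gene, was at 19.8, 19.8 and 20.3 FPKM with vehicle and 18.6, 19.4 and 19.3 FPKM with enzalutamide (adjusted p = 0.780, edgeR), and the metalloreductase STEAP2 was likewise not called (log2 change in counts 0.18, adjusted p = 0.274, edgeR). The luminal factor SPDEF, with a log2 change of 0.36 in counts, was called higher by FPKM alone (adjusted p = 0.0305, limma; 0.0807, edgeR).

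The androgen-repressed list had 13 members, of which 5 were measured well enough for both tests, and these 5 fell. CAMK2N1, an inhibitor of the kinase CaMKII, fell from 178, 184 and 168 FPKM to 106, 106 and 109 FPKM. The chemokine receptor CXCR7 fell from 20.2 to 9.40 FPKM and the opioid receptor OPRK1 from 11.8 to 7.22 FPKM. The 5 falls depended on the libraries kept, since 2 to 4 members were called when 1 sample was left out, 2 being the count without enzalutamide replicate 2 and 3 that without vehicle replicate 1, vehicle replicate 2 or enzalutamide replicate 1.

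Among 18 tested members of the list of hormone receptor coregulators and partner factors, 5 fell and the other 13 were not called. HOXB13 and GATA2, which act at prostate enhancers, fell from 165 to 107 FPKM and from 66.7 to 49.0 FPKM. The coactivator NCOA3 fell from 8.0 to 5.06 FPKM, with exon bases shared with SULF2. FOXA1, a pioneer factor of prostate enhancers, was at 126 ± 5.15 FPKM with vehicle and 119 ± 2.08 FPKM with enzalutamide (SD, n = 3; adjusted p = 0.515, edgeR).

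The rise was largest, in counts, for ST6GALNAC1 (chromosome 17, 74620843 to 74639868) among the 446 eligible genes, those called in both measures whose groups did not overlap and that passed a minimum level. This sialyltransferase makes the sialyl-Tn antigen, and it went from 0.328, 0.307 and 0.323 FPKM to 5.56, 4.97 and 4.85 FPKM (log2 change in counts 4.63, standard error 0.390, adjusted p = 1.94e-07, edgeR). Its vehicle samples held 3, 3 and 0 reads and those of CHRNA2 1 each, so these fitted changes depend on the prior count. CHRNA2, a nicotinic receptor subunit (chromosome 8, 27317273 to 27337400), ranked next, from 0.0360 to 3.59 FPKM, a level close to absent with vehicle. MYBPC1, a myosin-binding protein known as an androgen target, rose from 0.904 to 12.1 FPKM, and the transcription elongation protein AFF3 from 0.434 to 3.03 FPKM. SLC45A3, the prostein gene (chromosome 1, 205626979 to 205649637), rose from 10.1, 10.3 and 9.57 FPKM to 95.1, 91.7 and 81.6 FPKM, an 8.97-fold change at a higher level. The transmembrane protein gene TMEFF2 rose from 1.46 to 11.7 FPKM, PMEPA1, an inhibitor of TGF-beta signalling, from 19.0 to 147 FPKM, the metalloprotease family member ADAM7 from 0.221 to 2.66 FPKM and C1orf116 from 5.13 to 29.0 FPKM. CMC2 also ranked here by counts, with a log2 change of 2.61, but by only 0.43 in log2(FPKM + 1), and it shares 240 exon bases with CENPN.

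Among 281 eligible genes that fell, NBPF7 led in counts with a log2 change of -2.59, but its FPKM went only from 2.91 to 2.25. With vehicle it had 56.3 CPM in stripped and 3.75 CPM in full serum, at 2.91 and 1.88 FPKM. Its symbol had no match in the annotation, so an exon overlap could not be checked. Its family holds near-identical copies, and the reason for the gap between the measures was not tested. The proton pump ATP12A fell from 2.58 to 0.807 FPKM, CD200, an immune checkpoint ligand, from 9.46 to 4.91 FPKM, thrombomodulin (THBD) from 6.04 to 2.01 FPKM, and the phospholipase PLD1 from 6.66, 7.68 and 8.10 FPKM to 3.07, 2.78 and 3.15 FPKM. KCNG1, a potassium channel subunit, fell from 14.9 to 7.15 FPKM and the autophagy regulator TP53INP2 from 7.38 to 4.0 FPKM. The immediate early gene FOS fell from 4.18 to 2.27 FPKM, CCDC80 from 3.65 to 1.56, the adhesion molecule SDK2 from 2.15 to 0.926, and the neuronal gene CEND1 from 1.65 to 0.532 FPKM. Some of these counts were low. ATP12A held 18, 16 and 16 reads with vehicle and 4, 5 and 3 with enzalutamide. CEND1 held 16, 16 and 17 reads and then 8, 4 and 4. FOS held 14, 16 and 20 reads and then 8, 9 and 1, near the threshold (adjusted p = 0.0440, edgeR).

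Genes of secretion and its building blocks rose in part. In the list of secretory and endoplasmic reticulum folding genes, 7 of 18 rose and the other 11 were not called. PDIA5, a disulphide isomerase, rose 1.92-fold in mean FPKM, the COPII coat gene SEC24D rose 1.76-fold, HERPUD1, of endoplasmic reticulum degradation, 1.34-fold and the chaperone HSP90B1 1.23-fold. PDIA4, DNAJB9 and SSR3 also rose, while the chaperone HSPA5, at 143 and 161 FPKM, was called higher by FPKM alone (adjusted p = 0.0306, limma; 0.189, edgeR). Of 11 tested glycosylation and hexosamine genes 5 rose, ST6GALNAC1 and the O-glycan enzymes GCNT1 (7.37 to 12.4 FPKM) and GALNT7 (11.3 to 19.0 FPKM), UAP1, of UDP-GlcNAc synthesis (52.5 to 75.2 FPKM), and the glycan-binding MLEC (54.9 to 68.3 FPKM). GCNT1 shares exon bases with PRUNE2.

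Polyamines are abundant in prostatic fluid. Of 9 tested genes of polyamine metabolism 3 rose, SMS (spermine synthase) from 90.6 to 148 FPKM, SRM (spermidine synthase) from 72.9 to 104 FPKM and AMD1, which supplies their aminopropyl donor, from 60.4 to 91.2 FPKM. ODC1, the first enzyme of the pathway, was at 189 and 219 FPKM and was called by FPKM alone (adjusted p = 0.0117, limma; 0.137, edgeR). In fatty acid synthesis and elongation 4 of 12 tested genes rose: ACACA, the acetyl-CoA carboxylase (35.5 to 54.6 FPKM), the elongases ELOVL5 (40.2 to 62.4 FPKM) and ELOVL7 (10.3 to 23.0 FPKM), and ACSL3, which activates fatty acids (29.1 to 61.2 FPKM). FASN, the synthase itself, had 167 ± 4.10 and 196 ± 17.2 FPKM (SD, n = 3) and was called higher by FPKM alone (adjusted p = 0.0194, limma; 0.108, edgeR). In cholesterol synthesis and uptake 2 of 16 rose, among them the regulator SREBF2, 1.29-fold.

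**Figure D3:**
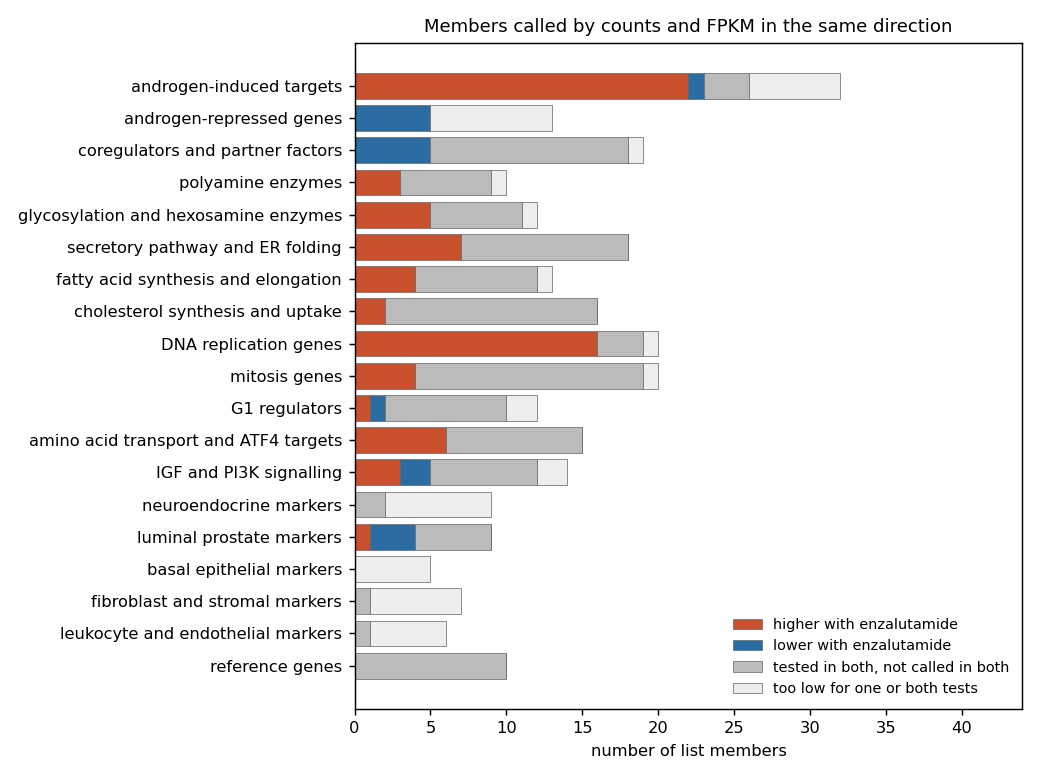
Number of members of each gene list called higher or lower with enzalutamide in both counts and FPKM, tested but not called in both, or too low for one or both tests. The androgen-induced list has 22 members higher of 26 tested and the DNA replication list 16 of 19, while the 10 reference genes have no call in both.

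Genes of DNA replication rose together. Of 19 tested members 16 rose, with a median log2 change of 0.96 in counts and 0.85 in log2(FPKM + 1). The MCM genes encode the replicative helicase: MCM2 rose from 15.1, 14.9 and 14.7 FPKM to 29.5, 27.0 and 26.3 FPKM, MCM3 from 7.34 to 15.4 FPKM, MCM4 from 12.5, 13.7 and 12.9 FPKM to 26.6, 24.9 and 26.5 FPKM, MCM5 from 7.79 to 16.6 FPKM, MCM6 from 11.1 to 17.1 FPKM and MCM7 from 22.4 to 40.9 FPKM. CDC6, which loads the helicase, rose from 4.78, 5.86 and 5.46 FPKM to 14.8, 14.4 and 15.1 FPKM, the largest fold among those named here at 2.75. The helicase cofactor CDC45, the sliding clamp PCNA, the flap nuclease FEN1, the nucleotide reductase subunit RRM2, the transcription factor E2F1 and the methylation factor UHRF1 rose 2.32-, 1.72-, 2.16-, 2.21-, 1.70- and 1.99-fold. CCNE1, CCNE2 and TYMS were not called. TYMS, thymidylate synthase, was 1.74-fold higher in FPKM (adjusted p = 9.07e-05, limma) and not called in counts (adjusted p = 0.526, edgeR), and it shares 967 exon bases with ENOSF1, as MCM7 shares 392 with AP4M1. GINS2 was too low for the count test. The 16 calls were sensitive to the test. The equal-variance test on variance-stabilized counts, run on 17274 genes without the study's filter on low variation, called 1 member of the list. In bulk RNA, more cells in a cycle phase and more RNA per cell cannot be told apart.

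E2F factors are the known regulators of these genes, and their motif was looked for after the values of the replication genes had been seen, as TTTCCCGC, TTTCGCGC, TTTGCCGC or TTTGGCGC on either strand. It occurs in 10 of the 15 replication gene promoters found by symbol, or 66.7%. The share is 5.58% of the 7854 promoters of all genes tested in both measures. Among genes that rose it is 10.6% of 339 promoters, and among those that fell 2.0% of 200. The promoters of MCM3 (chr6:52284693-52284992, minus strand) and CDC6 (chr17:40287629-40287928, plus strand) are shown from RefSeq, GRCh38.p14, with the motif in capitals.
MCM3: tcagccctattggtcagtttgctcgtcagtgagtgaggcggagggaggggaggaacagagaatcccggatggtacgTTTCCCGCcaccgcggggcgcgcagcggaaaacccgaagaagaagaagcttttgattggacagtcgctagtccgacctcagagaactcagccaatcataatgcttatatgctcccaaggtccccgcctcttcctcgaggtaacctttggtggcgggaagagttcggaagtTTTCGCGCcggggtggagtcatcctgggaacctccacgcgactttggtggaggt
CDC6: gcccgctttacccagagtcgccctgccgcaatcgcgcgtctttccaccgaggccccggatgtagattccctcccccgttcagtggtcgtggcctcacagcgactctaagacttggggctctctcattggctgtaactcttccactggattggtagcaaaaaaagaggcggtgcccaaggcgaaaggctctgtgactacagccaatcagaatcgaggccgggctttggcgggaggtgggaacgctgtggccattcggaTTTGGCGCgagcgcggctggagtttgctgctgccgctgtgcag
A match in these windows is a description of the letters and not of binding.

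Fewer mitosis genes rose. Of 19 tested in both measures 4 rose, the proliferation marker MKI67 (7.71 to 13.5 FPKM), the kinase CDK1 (30.7 to 53.6 FPKM), CENPF (8.56 to 11.2 FPKM) and TPX2 (13.9 to 19.5 FPKM). FPKM alone called all 20 members higher, with a median log2 change of 0.35, such as TOP2A (10.8 to 14.1 FPKM), PLK1 (11.5 to 13.7 FPKM) and CCNB1 (37.3 to 42.0 FPKM). Without vehicle replicate 1 the count in both measures was 2. Of 10 tested G1 regulators, MYC rose from 64.4, 67.1 and 67.9 FPKM to 108, 98.1 and 94.4 FPKM, and the CDK inhibitor CDKN1A fell from 55.7, 56.8 and 54.0 FPKM to 43.9, 42.2 and 41.6 FPKM. CCND1, cyclin D1, was at 82.2 ± 1.97 and 78.3 ± 0.586 FPKM (SD, n = 3; adjusted p = 0.940, edgeR), and the inhibitor CDKN1B at 31.1 and 25.8 FPKM was called by FPKM alone (adjusted p = 0.00354, limma; 0.170, edgeR).

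**Figure D4:**
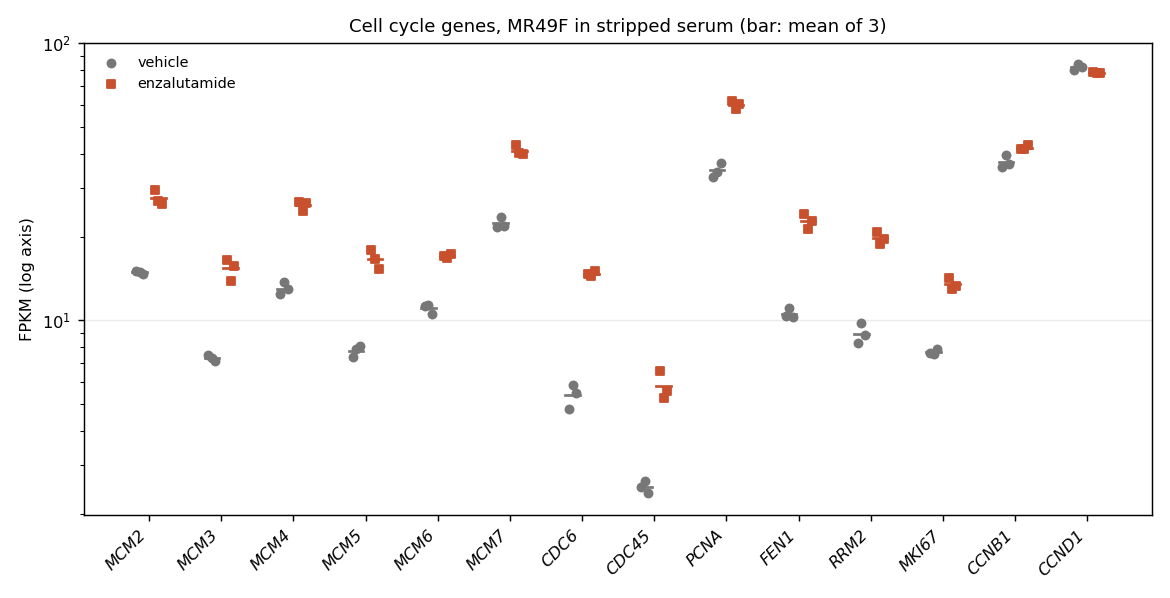
FPKM (log axis) of cell cycle genes in the 3 vehicle and 3 enzalutamide samples; points are samples and short bars are means of 3. The MCM genes, CDC6, CDC45, PCNA, FEN1, RRM2 and MKI67 have higher means with enzalutamide. CCND1 moves little, with a mean of 82.2 FPKM with vehicle and 78.3 FPKM with enzalutamide.

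ATF4, a transcription factor of amino acid shortage, rose from 142, 143 and 150 FPKM to 224, 217 and 222 FPKM, and 6 of 15 tested members of its list rose. The cystine transporter SLC7A11 rose from 9.71 to 22.2 FPKM, its partner SLC3A2 from 40.9 to 54.4 FPKM, the glutamine transporter SLC1A5 from 49.9 to 66.9 FPKM, asparagine synthetase (ASNS) from 62.2 to 83.4 FPKM and PSAT1, of serine synthesis, from 78.8 to 110 FPKM. SLC7A11 and SLC1A5 each share exon bases with a gene on the other strand. In the growth factor list, 3 of 12 tested genes rose and 2 fell. IGF1R, the receptor of insulin-like growth factor, rose from a mean of 5.56 FPKM to 14.8 FPKM, and PIK3R1, a regulatory subunit of PI3 kinase, from 19.1, 19.5 and 19.9 FPKM to 37.2, 36.3 and 39.3 FPKM. FKBP5 was the third. PIK3R3, another regulatory subunit of PI3 kinase, fell from 41.2 to 27.2 FPKM and the receptor ERBB2 from 42.0 to 26.6 FPKM, with exon bases that ERBB2 shares with MIEN1.

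The luminal identity of the cells was checked with 9 marker genes. All were expressed, at a summed 1356 to 1420 FPKM with vehicle and 1368 to 1410 FPKM with enzalutamide; 1 rose and 3 fell, among the latter HOXB13 and FOLH1, the prostate-specific membrane antigen (422 to 334 FPKM), and the other 5 were not called. Of the other lists, the 5 basal markers summed to 0.671 to 1.15 FPKM over the 6 samples, with KRT5 and KRT15 listed at 0, the 7 stromal markers to 2.59 to 3.16 FPKM and the 6 leukocyte and endothelial markers to 2.63 to 3.14 FPKM. The 9 neuroendocrine markers summed to 30.2 to 32.3 FPKM with vehicle and 24.0 to 26.3 FPKM with enzalutamide, nearly all of it ENO2; edgeR called 0 of the 2 with enough reads, with 0 at an unadjusted p under 0.05, and limma called 2 of 3 lower, while CHGA and INSM1 were at most 0.0509 and 0.0160 FPKM. Of 10 reference genes, edgeR on counts called 0, with 1 at an unadjusted p under 0.05, and limma on FPKM called 2, HPRT1 and TFRC.

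DHT, the natural ligand, served as the reference androgen response, although its dose of 1 nM and the 10 μM of enzalutamide are not matched. Whether this dose gives a maximal response was not tested. Tested directly against enzalutamide in both measures, 1022 of 10360 genes (9.86%) were higher with DHT and 909 (8.77%) lower, and these values share the enzalutamide samples with the comparison above. In FPKM alone, 36.4% of the calls were higher with DHT, and 52.0% after samples were set to a common median. Of the 32 androgen-induced targets 28 were higher with DHT than with enzalutamide and 2 lower. KLK3 stood at 1212, 1235 and 1327 FPKM with DHT, above 794 to 810 FPKM with enzalutamide (log2 difference in counts 0.73, standard error 0.0738, adjusted p = 4.30e-07, edgeR). FKBP5 was at 409 ± 10.5 FPKM with DHT and 47.6 ± 1.84 FPKM with enzalutamide (SD, n = 3), a log2 difference in counts of 3.12. PMEPA1 lay closer, at 181 and 147 FPKM, a difference of 0.43. Several genes not called in both measures with enzalutamide were higher with DHT: NDRG1 was at 191 FPKM (log2 difference in counts 3.39), SPDEF at 124 FPKM (1.73), ODC1 at 509 FPKM (1.27) and FASN at 490 FPKM (1.36).

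In the other lists the gap was uneven. With DHT 17 of 18 secretory genes, 9 of the 13 fatty acid genes and 5 of the 10 polyamine genes were higher than with enzalutamide, SMS reaching 768 FPKM against 148. Of the 20 replication genes 9 were higher with DHT, as were 2 of the 20 mitosis genes. For MCM2 to MCM7 the log2 differences in counts lay between 0.18 (MCM2) and 0.58 (MCM5). MYC was at 98.8 ± 5.63 FPKM with DHT and 100 ± 7.27 FPKM with enzalutamide (SD, n = 3; log2 difference in counts 0.08, standard error 0.0949, adjusted p = 0.608, edgeR). ATF4, at 206 and 221 FPKM, and SLC7A11, at 22.8 and 22.2 FPKM, likewise missed the threshold, which does not show that the ligands act alike. PIK3R1 went the other way, with 16.8, 18.2 and 16.7 FPKM under DHT, below 36.3 to 39.3 FPKM under enzalutamide (log2 difference in counts -1.02, standard error 0.101, adjusted p = 3.13e-07, edgeR). TMEFF2 was at 9.57 FPKM with DHT and 11.7 with enzalutamide, lower with DHT in FPKM alone (adjusted p = 0.0107, limma; 0.664, edgeR). Several genes that fell with enzalutamide were lower still with DHT, such as CAMK2N1 at 17.1 FPKM, CXCR7 at 0.924 and FOLH1 at 124 FPKM, log2 differences in counts of -2.59, -3.21 and -1.43. TP53INP2 was not, at 5.69 FPKM with DHT and 4.0 with enzalutamide, higher with DHT in FPKM alone (adjusted p = 0.000502, limma; 0.123, edgeR).

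In full serum, which contains steroids, the values of these genes with enzalutamide were examined for a change in the same or the opposite direction. Of the 455 genes it raised in stripped serum, 451 were tested in both measures in the full-serum samples, where 71 (15.7%) were lower and 11 (2.44%) higher, against 2.08% lower and 2.15% higher among all 11836 genes tested there. Their median log2 change in counts was -0.115. Of 257 tested genes that fell in stripped serum, 50 (19.5%) were higher in full serum and 3 (1.17%) lower, with a median of 0.126. KLK3 was at 993, 974 and 945 FPKM with vehicle in full serum and at 941, 937 and 946 FPKM with enzalutamide (log2 change in counts -0.09, adjusted p = 0.341, edgeR), so the enzalutamide samples of stripped serum, at 794 to 810 FPKM, lay below both. FKBP5 fell in full serum from 209 to 91.1 FPKM and ST6GALNAC1 from 69.5 to 25.5 FPKM. A test of the difference between the serum conditions called 1439 of 12239 genes (11.8%) in both measures. Among them were 23 of 25 genes, those named by rank with KLK3, KLK2 and TMPRSS2. Most of the 25 were picked for a large change in stripped serum, so this share follows in part from the choice. For KLK3 the difference was 1.68 on the log2 scale (standard error 0.0945) and for FKBP5 3.85 (0.128). Serum cannot be told apart from experiment, plating density and way of counting, which all changed with it.

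**Figure D5:**
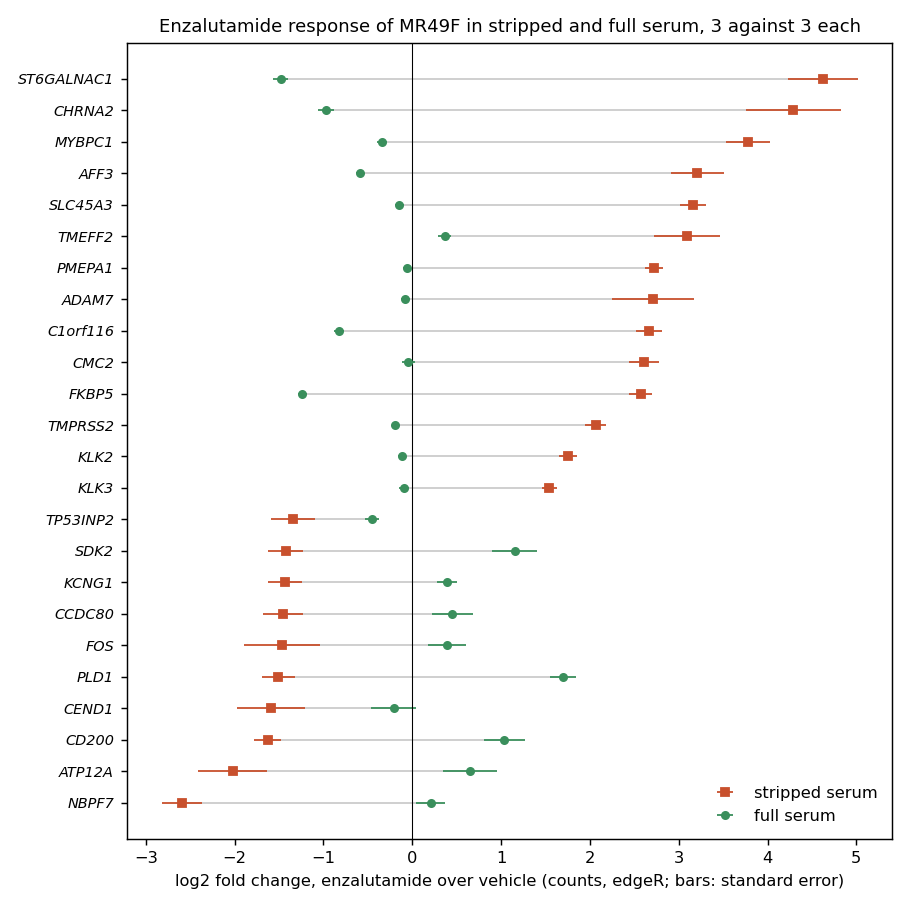
Log2 fold change with enzalutamide (counts, edgeR; bars are standard errors) in stripped serum (squares) and full serum (circles) for the genes named by rank with KLK3, KLK2 and TMPRSS2. FKBP5 stands at 2.57 in stripped and -1.24 in full serum, TMEFF2, TP53INP2 and CEND1 have the same sign in both, and THBD, which had too few reads for the full-serum fit of counts, is not drawn.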

How the data were processed

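RNA-seq values were analysed for 6 MR49F samples in stripped serum, vehicle and enzalutamide with 3 each, beside 3 DHT samples and 6 MR49F samples in full serum. Groups and replicate numbers came from the sample labels. The authors made stranded poly(A) libraries, sequenced single-end reads of 50 bases, aligned them to hg19 with TopHat2 2.0.9 and deposited raw HTSeq counts per gene symbol, with the strand setting not given in the sources used here, and FPKM per transcript from Cufflinks 2.1.1 (versions per the submitters' processing notes). The deposited counts went into edgeR 4.0.16 under R 4.3.3 (glmQLFit and glmQLFTest, TMM, filterByExpr with its defaults), and each fit held the compared groups alone. Deposited FPKM were summed by symbol and tested with limma 3.58.1 (trend) on log2(FPKM + 1), keeping genes that reached 1 FPKM in 3 or more samples, so fold changes on that scale understate low genes. Calls used a Benjamini-Hochberg adjusted p of at most 0.05. Folds in the text are ratios of mean FPKM.

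The report names the 12 genes that rose and the 12 that fell with the largest log2 fold change in counts, among genes called in both measures whose groups did not overlap and whose higher group averaged at least 10 CPM and 1 FPKM. It also names KLK3, KLK2, TMPRSS2 and FKBP5, and members of gene lists. Some genes that these rules name are not reported here. Members and lists were chosen with earlier results of these data known. Lists were described by counts of calls and medians, with no test. Coordinates are GENCODE 44 on GRCh37, matched by symbol for 20574 of 23710 symbols, and exon overlaps are from the same annotation. Replicates differed by more than sampling noise (chi-square per degree of freedom 1.23 to 2.82), so none was merged. Replicate numbers were not entered as pairs in the main fits. The deviations of same-numbered samples correlated with r of -0.008 to 0.178 in counts and -0.27 to -0.046 in log FPKM. For samples of different number, r was -0.177 to 0.105 in counts and -0.157 to 0.216 in log FPKM. These values do not decide whether the samples were paired. Scripts were tested on simulated data. Samples of other treatments entered only the alternative with 18 samples, and those of the parental line were not used here.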

Additional observations from a re-analysis of the deposited data

Results flagged for a closer look

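The response to enzalutamide differed between stripped and full serum, in both measures, for 23 of 25 genes. The 25 are those named by rank with KLK3, KLK2 and TMPRSS2. Values are differences of log2 fold changes in counts, stripped minus full serum, tested as an interaction in edgeR and limma over 12 samples. The difference was positive for 13 genes. It was 1.68 for KLK3, 1.92 for KLK2, 2.30 for TMPRSS2, 3.85 for FKBP5, 3.36 for SLC45A3, 2.83 for PMEPA1 and 3.54 for C1orf116. It was 6.23 for ST6GALNAC1, 5.45 for CHRNA2, 4.18 for MYBPC1, 3.87 for AFF3, 2.88 for ADAM7 and 2.80 for TMEFF2. The other 10 were negative, at -2.77 for NBPF7, -2.65 for ATP12A, -2.62 for CD200, -2.76 for THBD and -3.16 for PLD1. The values were -1.82 for FOS, -1.87 for CCDC80, -1.78 for KCNG1, -2.53 for SDK2 and -0.86 for TP53INP2. CMC2 and CEND1 differed in 1 measure each and not in the other. Since these genes were mostly named for a large change in stripped serum, a difference of this sign follows in part from the choice. The share of reads counted on genes was 5.13% to 7.43% in the stripped-serum samples and 76.1% to 77.8% in the full-serum samples, and its part in these differences was not tested.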

How the results depend on the processing

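The count test moved the number of genes changed by enzalutamide most. Against 808 genes by edgeR, the DESeq2 Wald test called 368. The equal-variance test on variance-stabilized counts called 134 of 17274 genes, tested without the study's filter on low variation. Calls in both measures went from 740 to 340 and 94. With these 2 tests the androgen-repressed list had 3 and 0 members lower and the mitosis list 2 and 2 higher, and with the second the androgen-induced list had 13 and the replication list 1 higher. Leaving out 1 sample gave 414 to 910 genes by counts and 375 to 751 in both measures, with 2 to 4 androgen-repressed and 2 to 5 mitosis genes. Without replicate 3 of both groups, an alternative chosen after seeing the data, 744 genes were called in both measures. Whether the replicate numbers pair samples is not decided by these data. With the replicate block 1323 genes were called by counts and 1113 in both measures. The cause of these gaps was not tested. Of 182 gene-by-measure calls in a wider set of examined genes 113 held under every alternative tried, and 0 of all 205 such results reversed. The counts held only 1059382 to 1702742 reads on genes per sample, so that a modest change of a thinly covered gene may be missed there.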
